A study of Mus musculus with 10 samples.

Results

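The IL-6 family signals through the shared receptor chain gp130. Its members here are 10 genes: the cytokines Il6, Lif, Il11 and Clcf1, the receptor chains Il6st, Il6ra, Osmr and Lifr, the transcription factor Stat3 and the inhibitor Socs3. They were chosen by name, as gp130 cytokines and receptors with STAT3 and SOCS3, and all 10 were found among the 22731 genes of the deposited count table. The series title names the pancreas. Fibroblasts (CD45-, Epcam-, CD31-, Pdpn+ and Pdgfra+) were sorted from mice labelled C57B6 and kept alone (monoculture, 4 libraries), with wild-type group 2 innate lymphoid cells (WT coculture, 3 libraries) or with IL13KO cells of the same kind (IL13KO coculture, 3 libraries). Group 2 innate lymphoid cells (ILC2s) are tissue lymphocytes without antigen receptors that release IL-5 and IL-13; those used here were sorted as CD45+, CD3-, B220-, Lineage- and KLRG1+. The fibroblasts of all groups carry the C57B6 label, and the knockout is in the ILC2s. The age of the mice, the time in culture and the animal or culture behind each library are not given in the sources used here, so p-values measure only the spread between these libraries, which may be technical. RNA came from cells sorted again after culture as Pdpn+ and Pdgfra+, and for this sort the design text gives CD45+ although the starting fibroblasts were CD45-.

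A cytokine of this family brings 2 signalling chains together at the cell surface, gp130 (encoded by Il6st) with itself or with a partner. IL-6 and IL-11 first bind their own receptor, the products of Il6ra and Il11ra1, and then gp130. LIF uses the chain encoded by Lifr with gp130, oncostatin M uses the chain encoded by Osmr, and the product of Clcf1 acts through the CNTF receptor. Janus kinases on the chains then activate STAT3, which enters the nucleus, and Socs3 is a target of STAT3 whose product blocks gp130 signalling in turn. Fibroblasts of many tissues are known sources of IL-6, LIF and IL-11.

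Monoculture libraries held 10710410 to 14366199 counts, WT coculture libraries 18801744 to 22087459 and IL13KO coculture libraries 17277432 to 17661229. Levels are in CPM, the share of a library's counts scaled to a fixed total, after TMM correction for library composition, and a count of 3 corresponded to 0.135 to 0.277 CPM. Reads of Il13, the gene missing from the knockout ILC2s, numbered 30, 120 and 121 with WT ILC2s and 0 in the other 7 libraries. Genes that mark fibroblasts (Pdgfra, Pdpn, Col1a1 and 7 others) summed to 7520 to 10300 CPM in monoculture, 12500 to 16700 with WT and 23300 to 28400 with IL13KO ILC2s. Within this list Dcn and Lum fell, by log2 fold changes of -2.78 and -3.69 with WT and -0.62 and -1.44 with IL13KO ILC2s. By the test given below, 7 of the 10 genes were called higher in each coculture (32.8% and 30.1% of all genes). These 2 were called lower (29.7% and 27.3% of all genes). The CD45 gene Ptprc was near 0, with 6, 3 and 9 reads when WT ILC2s were present, 0, 1 and 0 reads with IL13KO ILC2s and 0 in monoculture. The 11 leukocyte genes together reached 110 to 142 CPM with WT ILC2s, 26.9 to 34.9 with IL13KO ILC2s and 11.9 to 19.7 in monoculture, and Cd53 alone gave 92.4 to 112 CPM in the WT cocultures. Of these genes 5 could be tested. Against monoculture 2 were called higher and 0 lower with WT ILC2s (32.8% and 29.7% of all genes). With IL13KO ILC2s 1 was called higher and 0 lower (30.1% and 27.3% of all genes). Between the cocultures 2 were called higher and 0 lower (11.6% and 11.7%). Fyb stood at -0.27 and -0.45 against monoculture, neither called. The 6 macrophage genes in the table summed to 58.6 to 65.6 CPM in monoculture, 14.9 to 17.7 with WT and 35.4 to 37.3 with IL13KO ILC2s. Only 2 of them could be tested, and these went opposite ways. Against monoculture, Lyz2 had log2 fold changes of -4.23 with WT and -1.17 with IL13KO ILC2s, and Csf1r 0.52 and 0.44. The 7 genes of mural cells summed to 87.6 to 98.7 CPM in monoculture, 34.0 to 34.6 with WT and 103 to 138 with IL13KO ILC2s. In the same order of groups, 4 endothelial genes summed to 0.76 to 4.61, 32.8 to 35.7 and 4.21 to 5.73 CPM. Of these, Flt1 had log2 fold changes of 5.71 and 2.02 against monoculture, and Tek 0 and 0.43. For 6 mesothelial genes the sums were 25.0 to 150, 131 to 152 and 107 to 228 CPM. For 5 epithelial genes they were 0 to 2.12, 1.35 to 3.33 and 0.397 to 2.16 CPM. In bulk RNA, fewer cells of a type and less RNA per cell cannot be told apart.

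Most of the family was higher in fibroblasts kept with ILC2s than in fibroblasts alone. A gene was called when its Benjamini-Hochberg adjusted p from edgeR's quasi-likelihood test, over all 16344 genes tested, was below 0.05; every adjusted p below comes from that test unless another is named, and fold changes are log2 ± SE. Against monoculture, 8 of the 10 members were called higher and 0 lower with WT ILC2s, where 32.8% of all genes were called higher and 29.7% lower. With IL13KO ILC2s the count was also 8 higher and 0 lower, against 30.1% and 27.3% of all genes. Between the cocultures, 4 members were higher and 2 lower with WT ILC2s, where 11.6% of all genes were called higher and 11.7% lower; without any 1 library these counts ranged from 1 to 4 higher and from 1 to 3 lower. By library, 8 members lay wholly above monoculture with WT ILC2s and 0 below (32.2% and 28.7% of all genes), and 8 above and 0 below with IL13KO ILC2s (30.9% and 28.3%). With WT against IL13KO ILC2s, 4 lay wholly above and 4 below (24.2% and 24.8%). The median log2 fold change of the members was 1.40, 1.44 and -0.26 in these 3 comparisons, and that of all genes 0.02, 0 and 0. Both comparisons with monoculture share the same 4 control libraries. Lif entered the tests through the cocultures, since no monoculture reached the minimum of 0.578 CPM, so these counts and medians describe the members and support nothing further.

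The 8 members called in each comparison with monoculture are not the same 8. Il6 and Il11 were called with WT ILC2s only, and Osmr and Lifr with IL13KO ILC2s only. The difference behind this split is tested directly in the comparison of the cocultures, where Il6 and Il11 were called higher and Osmr and Lifr lower with WT ILC2s. Lif and Il6ra were called in all 3 comparisons, and Clcf1, Il6st, Stat3 and Socs3 in both comparisons with monoculture only.

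**Figure D1:**
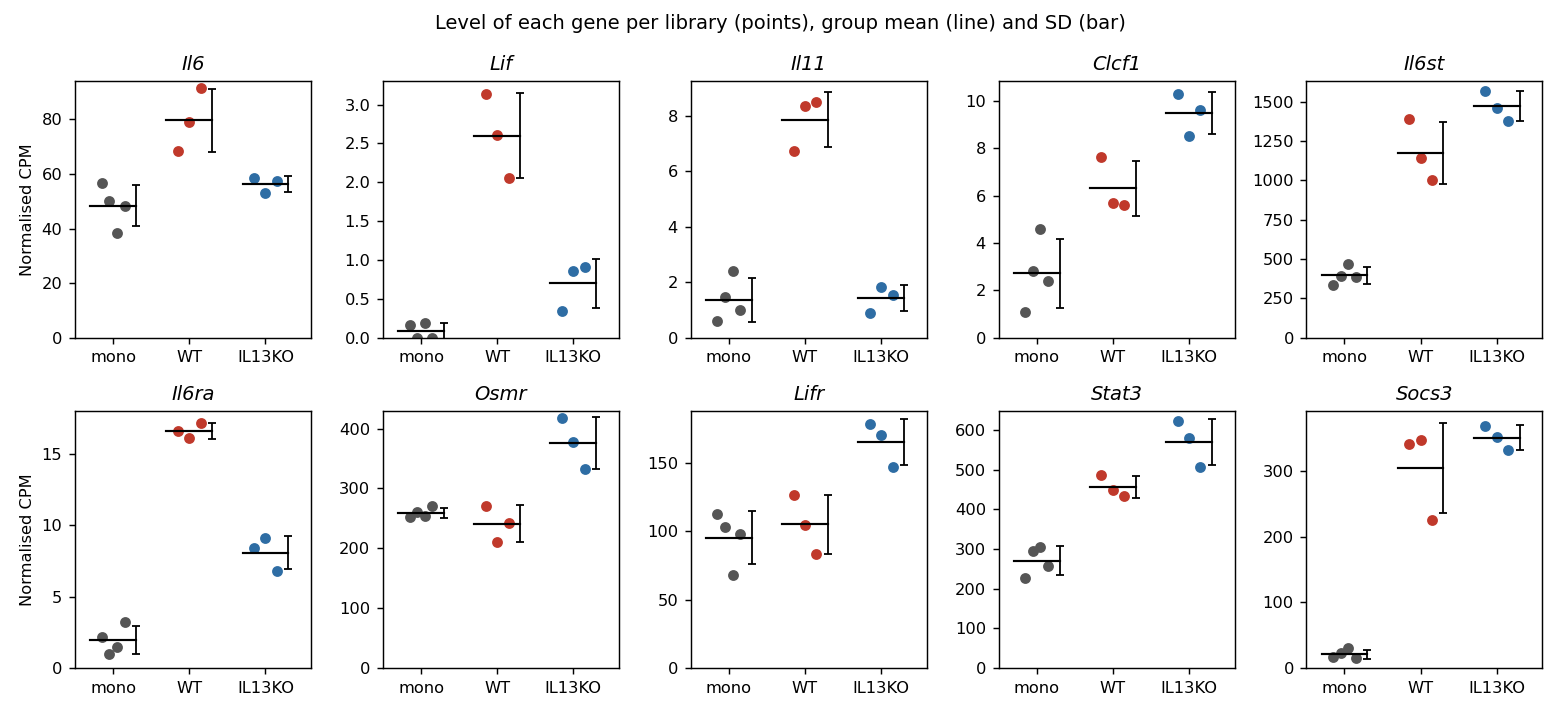
Each panel shows 1 gene, with normalised CPM on a linear axis from 0 and 1 point per library (4 monocultures, 3 WT and 3 IL13KO cocultures), the group mean as a line and the SD as a bar. Il11 stands at 6.73 to 8.51 CPM in the WT cocultures and at or below 2.40 in the other libraries, while Socs3 is at 225 CPM or more in every coculture and at or below 29.7 in every monoculture.

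Fold changes against monoculture were related to the GC content of genes. Over all tested genes, Spearman's rho of fold change with GC content was 0.326 for WT and 0.398 for IL13KO coculture, and -0.0603 between the cocultures; these are correlations across genes, which are not independent replicates. When the trend of each library with GC content and with exon length was removed, the median of all genes moved by -0.23, -0.26 and 0.05. The calls then stood at 4165 genes higher and 5846 lower with WT ILC2s, in place of 5355 and 4857, and at 3358 and 5551 with IL13KO ILC2s, in place of 4927 and 4457. Under this setting 6 members were called higher and 1 lower with WT ILC2s, and 7 higher with IL13KO ILC2s. Its values are given beside each member whose call or size it moved.

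Il6 (ENSMUSG00000025746, chromosome 5, 30013114 to 30019981, GRCm38) encodes the founding cytokine of the family. Its level was 56.7, 50.1, 38.4 and 48.1 CPM in the 4 monocultures, 68.3, 79.1 and 91.4 in the 3 WT cocultures, and 58.6, 53.0 and 57.4 in those with IL13KO ILC2s. Every WT coculture lay above every library of the other groups, whose ranges overlapped. Il6 rose with WT ILC2s by 0.72 ± 0.13 (adjusted p = 0.00044), a fold of 1.65. With IL13KO ILC2s the difference from monoculture was 0.22 ± 0.13 (adjusted p = 0.177; 95% interval -0.07 to 0.51). After removal of the GC and length trend these values were 1.35 and 0.81, and the latter was then called (adjusted p = 1.53e-05, over the alternatives 1.53e-05 to 0.488). Il6 was higher with WT than with IL13KO ILC2s by 0.50 ± 0.14 (adjusted p = 0.0236). That call was lost without WT coculture 3 (adjusted p = 0.0576) or 4 (0.112), or without IL13KO coculture 1 (0.0598), 2 (0.102) or 3 (0.0606).

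Lif (ENSMUSG00000034394, chromosome 11, 4257557 to 4272514) encodes leukaemia inhibitory factor. It was nearly silent in monoculture, with 2, 0, 2 and 0 reads, and had 70, 51 and 38 reads in the WT and 6, 15 and 16 in the IL13KO cocultures. In normalised terms these were at most 0.184 CPM in monoculture, 3.14, 2.61 and 2.05 CPM in the WT group and 0.340, 0.853 and 0.907 CPM in the IL13KO group. The 3 groups did not overlap. The ratio of summed counts to monoculture was 33.2 for WT coculture (exact 95% counting interval 12.7 to 123) and 8.82 for IL13KO coculture (3.17 to 34.1). Fitted changes were 4.89 ± 0.64 (adjusted p = 2.77e-05) and 3.01 ± 0.74 (adjusted p = 0.0037), and they were 5.48 and 3.60 without monoculture 3, and 4.07 and 2.08 after removal of the GC and length trend. Lif was higher with WT than with IL13KO ILC2s by 1.88 ± 0.49 (adjusted p = 0.015). That call was lost without WT coculture 1 (adjusted p = 0.0661) or 3 (0.0529) or IL13KO coculture 1 (0.0748).

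Il11 (ENSMUSG00000004371, chromosome 7, 4772373 to 4782859) encodes IL-11, a cytokine known for its action on fibroblasts themselves. It stood at 0.591, 1.48, 2.40 and 0.984 CPM in monoculture, 6.73, 8.35 and 8.51 CPM in the WT group and 0.907, 1.82 and 1.53 CPM in the IL13KO group. The IL13KO cocultures lay within the range of the monocultures, and the WT cocultures lay above both. Il11 rose with WT ILC2s by 2.54 ± 0.35 against monoculture (adjusted p = 4.47e-05) and was higher by 2.46 ± 0.38 than with IL13KO ILC2s (adjusted p = 0.000509), a fold of 5.52. Among the members this was the largest difference between the cocultures, and its adjusted p was 0.0045 or less in all 20 alternatives. The IL13KO cocultures differed from monoculture by 0.08 ± 0.40 (adjusted p = 0.882), and the interval of -0.78 to 0.94 leaves room for a change in either direction.

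Clcf1 (ENSMUSG00000040663, chromosome 19, 4214238 to 4223490) encodes cardiotrophin-like cytokine factor. Its highest values were in the IL13KO group, with 1.10, 2.81, 4.61 and 2.39 CPM in monoculture, 7.63, 5.69 and 5.60 in the WT and 10.3, 8.53 and 9.64 in the IL13KO cocultures. The groups did not overlap. Clcf1 rose by 1.22 ± 0.32 with WT (adjusted p = 0.00516) and by 1.80 ± 0.32 with IL13KO ILC2s (adjusted p = 0.000389). Both calls were lost with the GC and length trend removed, at 0.19 (adjusted p = 0.538) and 0.57 (adjusted p = 0.0634). WT and IL13KO cocultures differed by -0.58 ± 0.32, which did not pass the test (adjusted p = 0.214; 95% interval -1.28 to 0.11) and passed in a fit of the cocultures alone (adjusted p = 0.0205). It shares 8.2% of its exon bases with a gene of the same strand.

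The promoters of the 3 cytokines that were higher with WT than with IL13KO ILC2s, and that of Socs3, the member with the lowest adjusted p against monoculture with WT ILC2s, are shown as examples. Windows came from RefSeq (GRCm38.p6) for 9 of the 10 members, 250 bases before each start, and Clcf1 had none. Each sequence reads 5′ to 3′ on the strand of the gene, and stretches that overlap an annotated exon were left out. Both strands were searched for an AP-1 motif (TGANTCA), a STAT motif (TTCNNNGAA) and the NF-κB motif, and capitals mark these matches.
Il6 (chr5:30012864-30013113, plus strand): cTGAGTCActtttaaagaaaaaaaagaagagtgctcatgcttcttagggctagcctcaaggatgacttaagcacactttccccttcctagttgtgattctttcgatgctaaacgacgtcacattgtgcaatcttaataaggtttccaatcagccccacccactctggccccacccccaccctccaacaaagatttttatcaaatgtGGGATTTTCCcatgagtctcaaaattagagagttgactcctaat
Lif (chr11:4257318-4257556, plus strand): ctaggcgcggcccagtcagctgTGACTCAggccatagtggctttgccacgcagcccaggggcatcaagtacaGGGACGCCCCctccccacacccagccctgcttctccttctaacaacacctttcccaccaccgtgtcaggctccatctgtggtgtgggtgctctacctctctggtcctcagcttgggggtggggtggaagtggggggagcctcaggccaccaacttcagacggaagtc
Il11 (chr7:4778142-4778391, minus strand): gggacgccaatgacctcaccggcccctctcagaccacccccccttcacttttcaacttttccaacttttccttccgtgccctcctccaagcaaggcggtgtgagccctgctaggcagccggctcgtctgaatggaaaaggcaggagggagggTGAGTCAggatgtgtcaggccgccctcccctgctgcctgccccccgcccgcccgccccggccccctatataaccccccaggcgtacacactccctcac
Socs3 (chr11:117969452-117969616, minus strand): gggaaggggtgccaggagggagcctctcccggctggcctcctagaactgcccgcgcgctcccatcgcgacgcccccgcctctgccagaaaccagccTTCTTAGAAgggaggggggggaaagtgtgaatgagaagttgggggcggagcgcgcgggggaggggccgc

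An AP-1 motif lay 249 to 243 bases before the start of Il6, 228 to 222 before that of Lif and 98 to 92 before the start used for Il11, which has another window without a match. Of all 32851 windows of this length, 6.75% hold the motif. The NF-κB motif, present in 7.25% of windows, lay 44 to 35 bases before Il6 and 178 to 169 before Lif. A STAT motif, present in 7.02% of windows, lay 154 to 146 bases before Socs3 and in no window of another member. A C/EBP motif (TTNNGNAA), present in 36.8% of windows and left in lower case, lay 128 to 121 bases before Il6 and was also found at Il6ra and Stat3. The windows of Il6st, Osmr and Lifr held none of these letters. A match is a description of the sequence and was not tied to binding here.

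Il6st (ENSMUSG00000021756, chromosome 13, 112464070 to 112510086) encodes gp130, the chain shared by the cytokines among the members. Its level was 335, 393, 466 and 389 CPM in monoculture, 1390, 1140 and 1000 in the WT and 1570, 1460 and 1380 in the IL13KO cocultures. Each coculture was above each monoculture, and the cocultures overlapped. Il6st rose by 1.58 ± 0.13 with WT (adjusted p = 4.25e-07) and by 1.89 ± 0.13 with IL13KO ILC2s (adjusted p = 4.27e-07), a fold of 2.98 and 3.71. The cocultures differed by -0.32 ± 0.13, which did not pass (adjusted p = 0.107; interval -0.61 to -0.03), and passed without WT coculture 1 (-0.45, adjusted p = 0.0318; over the alternatives 0.0318 to 0.359).

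Il6ra (ENSMUSG00000027947, chromosome 3, 89864059 to 89913196) encodes the receptor that binds IL-6 itself and that limits which cells answer IL-6 directly. It was low in monoculture, at 2.20, 0.963, 1.48 and 3.23 CPM, and stood at 16.6, 16.1 and 17.2 CPM with WT and 8.39, 9.09 and 6.80 CPM with IL13KO ILC2s. The 3 groups did not overlap. Il6ra rose by 3.06 ± 0.28 (adjusted p = 1.52e-06) and 2.02 ± 0.29 (adjusted p = 7.99e-05), or by 2.47 and 1.36 after removal of the GC and length trend. It was higher with WT than with IL13KO ILC2s by 1.04 ± 0.27 (adjusted p = 0.0149), and this call was lost without WT coculture 4 (adjusted p = 0.0524) or IL13KO coculture 1 (0.0528) or 3 (0.0687). White blood cells also express Il6ra, and the summed leukocyte genes given above were ordered in the same way over the groups, as was Lif. Most of that leukocyte sum with WT ILC2s was Cd53. Il6ra had 315 to 370 reads in each WT coculture. In the same libraries Cd53 had 2059 to 2084 reads, Il5 80 to 371, Il2ra 15 to 45 and Ptprc 3 to 9. Il5 had 30, 64 and 12 reads in the IL13KO cocultures, so the cocultures differed in an ILC2 transcript beside Il13. It was higher with WT than with IL13KO ILC2s by 2.62 ± 0.66 (adjusted p = 0.0177), though the libraries overlapped in CPM. The 14 ILC2 genes in the table summed to 172 to 234 CPM in monoculture, 424 to 463 with WT and 301 to 338 with IL13KO ILC2s, also in the order of Il6ra. Monocultures held no ILC2s, so the sum is not ILC2 RNA alone, and Thy1 is also among the fibroblast genes. Of the 7 genes tested, 6 were called higher and Rora lower (-0.61) with WT ILC2s than in monoculture (all genes: 32.8% and 29.7%). Between the cocultures 3 were called higher and Rora lower (-0.40) with WT ILC2s (11.6% and 11.7%). Il2ra overlapped there, at 0.673 to 2.31 CPM with WT and 0.227 to 4.21 with IL13KO ILC2s. The part of leukocyte or ILC2 RNA in the result for Il6ra was not tested.

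Osmr (ENSMUSG00000022146, chromosome 15, 6813577 to 6874969) encodes the chain that pairs with gp130 for oncostatin M. Its values were 252, 260, 254 and 271 CPM in monoculture, 271, 210 and 243 in the WT and 418, 377 and 332 in the IL13KO cocultures. The IL13KO cocultures stood above all other libraries, and the other 2 groups overlapped. Osmr rose with IL13KO ILC2s by 0.53 ± 0.10 (adjusted p = 0.000748) and was lower with WT than with IL13KO ILC2s by -0.64 ± 0.11 (adjusted p = 0.00128), a call kept in all 20 alternatives. WT coculture differed from monoculture by -0.10 ± 0.10 (adjusted p = 0.403; interval -0.33 to 0.12). After removal of the GC and length trend Osmr was called lower there (-0.28, adjusted p = 0.029; over the alternatives 0.029 to 0.907), while its rise with IL13KO ILC2s was 0.28 (adjusted p = 0.0278).

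Lifr (ENSMUSG00000054263, chromosome 15, 7090614 to 7197489), the LIF receptor gene near Osmr on the same chromosome, was also highest with IL13KO ILC2s. It stood at 113, 103, 67.8 and 98.1 CPM in monoculture, 127, 105 and 83.5 in the WT and 179, 171 and 147 in the IL13KO cocultures, the last group above all other libraries. Lifr rose with IL13KO ILC2s by 0.79 ± 0.17 (adjusted p = 0.00145), but this call was lost with the GC and length trend removed (0.21, adjusted p = 0.329). WT coculture and monoculture differed by 0.14 ± 0.17 (adjusted p = 0.503; interval -0.23 to 0.51), and by -0.36 with that trend removed (adjusted p = 0.0957). Between the cocultures Lifr was lower with WT ILC2s by -0.66 ± 0.18 (adjusted p = 0.0198), a call lost without WT coculture 3 (adjusted p = 0.0773) or 4 (0.0952) or IL13KO coculture 1 (0.0801) or 2 (0.0691). The summed genes of mural cells were also lower with WT than with IL13KO ILC2s, and their part in the values of Osmr and Lifr was not tested.

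Stat3 (ENSMUSG00000004040, chromosome 11, 100885098 to 100939540) encodes the transcription factor that gp130 activates. It stood at 227, 296, 304 and 257 CPM in monoculture, 486, 449 and 433 in the WT and 622, 580 and 508 in the IL13KO cocultures, and the groups did not overlap. Stat3 rose by 0.75 ± 0.11 (adjusted p = 7.26e-05) with WT and by 1.07 ± 0.11 (adjusted p = 7.25e-06) with IL13KO ILC2s. With the GC and length trend removed the first call was lost (0.11, adjusted p = 0.366) and the second was kept (0.34, adjusted p = 0.00851). The cocultures differed by -0.32 ± 0.12 (adjusted p = 0.0704; interval -0.58 to -0.06), and this passed under limma-voom (adjusted p = 0.0457), in a fit of the cocultures alone (0.0232) and without monoculture 1 (0.0263).

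Socs3 (ENSMUSG00000053113, chromosome 11, 117966079 to 117970047) encodes the inhibitor that binds gp130 and its kinases. Its level was 15.9, 22.4, 29.7 and 15.5 CPM in monoculture, 341, 347 and 225 in the WT and 369, 352 and 332 in the IL13KO cocultures. All cocultures lay above all monocultures by a wide margin, and the cocultures overlapped. Socs3 rose by 3.87 ± 0.22 with WT (adjusted p = 2.47e-08) and by 4.08 ± 0.22 with IL13KO ILC2s (adjusted p = 1.19e-07), a fold of 14.7 and 16.9. After removal of the GC and length trend the changes were 2.81 and 2.77. The cocultures differed by -0.21 ± 0.21 (adjusted p = 0.525; interval -0.66 to 0.25).

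**Figure D2:**
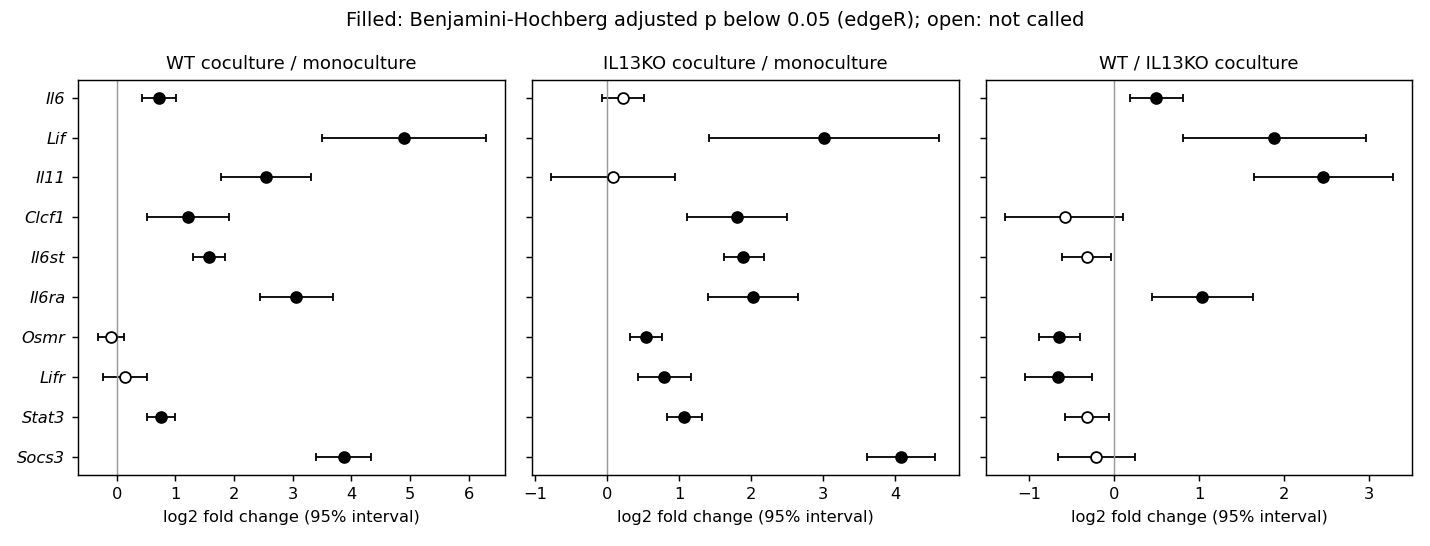
Log2 fold change of each member (points) with its 95% interval in the 3 comparisons, from edgeR; filled points are called and open points are not. Socs3 and Lif lie farthest to the right against monoculture, and in the comparison of the cocultures Il11, Lif, Il6ra and Il6 lie to the right of 0 and Osmr and Lifr to the left.

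Levels of different genes were compared per kilobase of exon. In monoculture the order of mean CPM per kilobase was Il6st 35.6, Stat3 28.4, Osmr 21.4, Il6 19.9, Lifr 8.87, Socs3 7.21, Clcf1 0.717, Il11 0.655, Il6ra 0.228 and Lif 0.0203. Libraries overlapped for the neighbours Il6st and Stat3, Osmr and Il6, Lifr and Socs3, Clcf1 and Il11, and Il11 and Il6ra. In the WT cocultures the order was Il6st 106, Socs3 105, Stat3 47.9, Il6 32.8, Osmr 19.9, Lifr 9.75, Il11 3.78, Il6ra 1.93, Clcf1 1.66 and Lif 0.598, with Il6st and Socs3, and Il6ra and Clcf1, overlapping. In the IL13KO cocultures it was Il6st 132, Socs3 121, Stat3 59.8, Osmr 31.0, Il6 23.2, Lifr 15.4, Clcf1 2.49, Il6ra 0.937, Il11 0.682 and Lif 0.161, with overlap of Il6st and Socs3 and of Il6ra and Il11. Socs3 thus stood beside Il6st at the top of both cocultures, and Il6 was the most abundant of the 4 cytokines per length in each group.

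**Figure D3:**
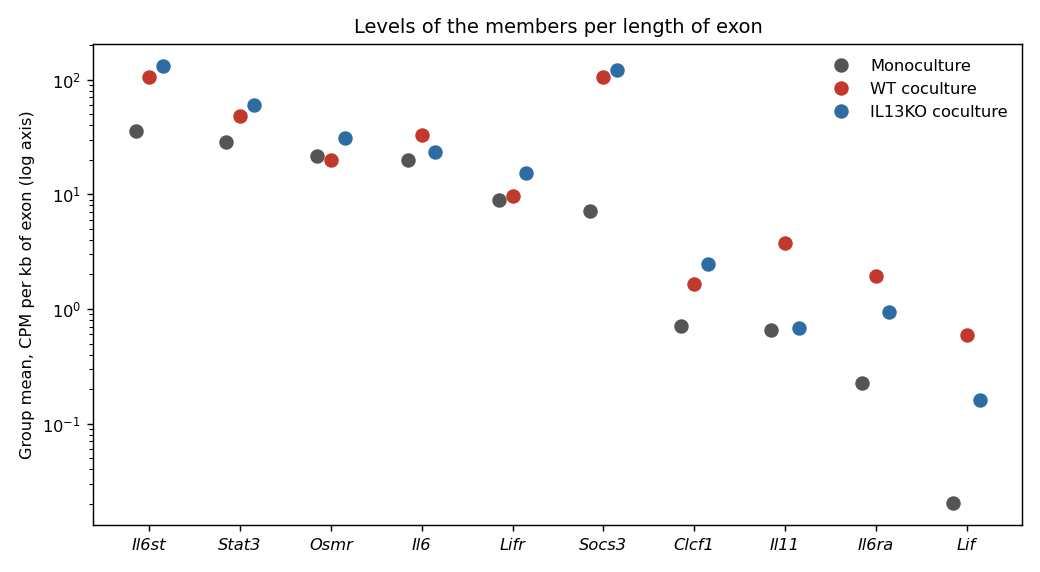
Group mean level of each member in CPM per kilobase of exon on a log axis, with genes ordered by their monoculture level and 1 point per group. Socs3 moves from 7.21 in monoculture to 105 and 121 in the cocultures, and Lif is lowest in every group.

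The remaining ligands were low. Ctf1, the cardiotrophin gene, was not called in any comparison in the fit of all libraries; its lower value with WT than with IL13KO ILC2s (-1.46 ± 0.58, adjusted p = 0.0858) passed in a fit of the cocultures alone (adjusted p = 0.0107) and without monoculture 1 (0.0242), as did its value with WT ILC2s against monoculture (-0.93, adjusted p = 0.168) without monoculture 1 (-1.26, adjusted p = 0.0261). Osm had 0 reads in monoculture, 0, 2 and 3 in the WT and 0, 2 and 0 in the IL13KO cocultures, so the gene of the ligand for the Osmr chain was too low to be tested. Il27 and Ebi3 were also below the filter, at 13 reads or fewer in every library.

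Among the other receptors, Cntfr, which encodes the CNTF receptor through which the product of Clcf1 acts, was highest in the IL13KO cocultures. It stood at 1.83 to 5.25 CPM in monoculture, 3.59 to 6.15 in the WT and 25.2 to 35.5 in the IL13KO cocultures. Cntfr rose with IL13KO ILC2s by 3.41 ± 0.31 (adjusted p = 2.68e-06), was lower with WT than with IL13KO ILC2s by -2.78 ± 0.32 (adjusted p = 5.25e-05), and differed by 0.63 ± 0.32 between WT coculture and monoculture (adjusted p = 0.107), where it was called without monoculture 3 (1.02, adjusted p = 0.00463; removal of the GC and length trend left it at -0.20). Its rise with IL13KO ILC2s was 2.38 with that trend removed. Il11ra1, the IL-11 receptor gene, was higher with IL13KO ILC2s than in monoculture by 0.50 ± 0.16 (adjusted p = 0.016) and lower with WT than with IL13KO ILC2s by -0.81 ± 0.17 (adjusted p = 0.00468). Removal of the GC and length trend turned the former value to -0.58 (adjusted p = 0.000561), and its call was lost without IL13KO coculture 1 (adjusted p = 0.0569). With WT ILC2s Il11ra1 differed from monoculture by -0.30 ± 0.16 (adjusted p = 0.117), and was called lower with that trend removed (-1.25, adjusted p = 5.33e-07), with upper-quartile size factors (-0.42, adjusted p = 0.0308) and without monoculture 1 (-0.45, adjusted p = 0.00224). Il11ra2 is known as a near-identical copy of this gene in mice, and how reads were split between them was not tested. Il27ra rose by 2.96 ± 0.41 (adjusted p = 4.14e-05) and 1.95 ± 0.42 (adjusted p = 0.00169), or by 2.32 and 1.22 with the trend removed. Between the cocultures Il27ra differed by 1.01 ± 0.38 (adjusted p = 0.0726), which passed under DESeq2 (adjusted p = 0.0341), limma-voom (0.0375), a fit of the cocultures alone (0.00451), removal of the trend (0.0287) and without monoculture 1 (0.00675). Il31ra, too low to be tested, had 0 reads in the monocultures and 24 over each set of 3 cocultures.

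Of 8 genes for Janus kinases, other STATs and adaptors, 5 were called higher and 0 lower with WT ILC2s, 6 higher and 0 lower with IL13KO ILC2s, and 0 higher and 2 lower between the cocultures, beside 32.8% and 29.7%, 30.1% and 27.3%, and 11.6% and 11.7% of all genes. After removal of the GC and length trend, which also lowered the number of all genes called higher as given above, these counts were 2 and 2, 5 and 0, and 0 and 1. Tyk2, a Janus kinase, rose most, by 2.63 ± 0.32 (adjusted p = 1.63e-05) and 2.95 ± 0.32 (adjusted p = 1.08e-05). With the trend removed the values of Tyk2 were 1.86 and 2.09. Jak1, the main kinase of gp130, differed by 0.00 ± 0.08 with WT ILC2s (adjusted p = 0.965) and rose by 0.59 ± 0.08 with IL13KO ILC2s (adjusted p = 4.49e-05), and it was lower with WT than with IL13KO ILC2s by -0.59 ± 0.08 (adjusted p = 0.000296). With the trend removed Jak1 was called lower with WT ILC2s (-0.67) and stood at -0.17 with IL13KO ILC2s (adjusted p = 0.164). Stat5a and Stat5b rose in both cocultures, by 0.95 and 1.36 with WT and 1.79 and 1.84 with IL13KO ILC2s. Stat5a was lower with WT than with IL13KO ILC2s by -0.84 ± 0.21 (adjusted p = 0.0117). That call was lost with the replicate number as a block (adjusted p = 0.0699), with the trend removed (0.0561) and without WT coculture 3 (0.062). Against monoculture, with the trend removed, Stat5a turned to -0.08 and Stat5b stood at 0.42 with WT ILC2s, neither called. With IL13KO ILC2s they stood at 0.57 (adjusted p = 0.0474) and 0.77 (adjusted p = 0.00238) under that setting. The phosphatase gene Ptpn11 (0.71 and 0.83) and the adaptor gene Gab1 (1.14 and 1.05) rose in both, Ptpn11 not being called with WT ILC2s under that setting (0.22, adjusted p = 0.0892). Jak2 and Grb2 were not called in any of the 3 comparisons by edgeR in the fit of all libraries. Grb2 was lower with WT than with IL13KO ILC2s by -0.43 ± 0.15 (adjusted p = 0.0618), which passed under DESeq2 (adjusted p = 0.0312), limma-voom (0.0407), a fit of the cocultures alone (0.0115) and without monoculture 1 (0.0479), 2 (0.0262) or 3 (0.0439). Against monoculture Grb2 with WT ILC2s stood at -0.28 (adjusted p = 0.112) and was called lower with upper-quartile size factors (-0.40, adjusted p = 0.0318), with the trend removed (-0.38, adjusted p = 0.0371) and without monoculture 2 (-0.40, adjusted p = 0.016).

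Among 9 negative regulators beside Socs3, 5 were higher and 2 lower with WT ILC2s, 5 higher and 1 lower with IL13KO ILC2s, and 3 higher and 2 lower between the cocultures. The shares of all genes called were 32.8% and 29.7%, 30.1% and 27.3%, and 11.6% and 11.7%. After removal of the GC and length trend the counts were 5 and 4, 4 and 4, and 4 and 2. Cish, which encodes an inhibitor of the same family as SOCS3 that is induced by STAT5, rose by 5.62 ± 0.22 (adjusted p = 2.24e-09) with WT and 3.20 ± 0.23 (adjusted p = 5.56e-07) with IL13KO ILC2s, and it was higher with WT than with IL13KO ILC2s by 2.42 ± 0.19 (adjusted p = 3.22e-06). With the trend removed the rises of Cish against monoculture were 4.57 and 1.94. Socs1 stood at 6.25 to 20.4 CPM in monoculture, 148 to 169 in the WT and 90.2 to 107 in the IL13KO cocultures, rising by 3.42 ± 0.26 and 2.68 ± 0.26. Removal of the trend left these rises at 2.64 and 1.71. Between the cocultures Socs1 differed by 0.74 ± 0.26 (adjusted p = 0.0529; chosen here after its value was seen). Socs2 rose with WT ILC2s by 0.93 ± 0.09 (adjusted p = 2.26e-06) and was higher than with IL13KO ILC2s by 1.02 ± 0.10 (adjusted p = 1.39e-05). Pias3, an inhibitor of STAT3, rose with IL13KO ILC2s by 2.66 ± 0.28 (adjusted p = 7.77e-06), and Pias1 fell by 0.77 on the log2 scale (adjusted p = 0.000861). Removal of the trend left Pias3 at 1.77 there. With WT ILC2s Pias3 also rose, by 2.44 (adjusted p = 8.25e-06), and Pias1 also fell, by 1.13 (adjusted p = 3.67e-05).

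Genes commonly linked to STAT3 did not move one way. Of 20, 11 were higher and 6 lower with WT ILC2s, 13 higher and 3 lower with IL13KO ILC2s, and 3 higher and 5 lower between the cocultures; their medians were 0.88, 0.84 and -0.14. Of all genes, 32.8% and 29.7%, 30.1% and 27.3%, and 11.6% and 11.7% were called in these directions. With the GC and length trend removed the counts were 9 and 7, 12 and 5, and 3 and 6. Serpina3n, a serine protease inhibitor gene, rose by 3.61 ± 0.13 (adjusted p = 1.1e-09) and 3.06 ± 0.13 (adjusted p = 3.28e-08), and the kinase gene Pim1 rose by 2.05 ± 0.10 and 1.78 ± 0.10. With the trend removed the value of Pim1 with IL13KO ILC2s was 1.18. Junb and Bcl3 rose in both cocultures, by 3.52 and 2.97 with WT and by 3.73 and 3.34 with IL13KO ILC2s, and the cocultures did not differ past the threshold (adjusted p = 0.68 and 0.423). Their rises with IL13KO ILC2s were 2.66 and 2.54 with the trend removed. Timp1 rose by 1.62 with WT and by 0.88 with IL13KO ILC2s. Saa3, which encodes a serum amyloid A protein, fell by 3.28 on the log2 scale with WT (adjusted p = 5e-09) and by 0.85 with IL13KO ILC2s (adjusted p = 0.000149), and it was lower with WT than with IL13KO ILC2s by -2.44 ± 0.15 (adjusted p = 4.79e-07). Hp, which encodes haptoglobin, and Lrg1 were lower with WT than with IL13KO ILC2s by -1.91 ± 0.15 (adjusted p = 3.6e-06) and -2.98 ± 0.24 (adjusted p = 3.87e-06), while Myc was higher by 0.90 ± 0.13 (adjusted p = 0.000358).

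All 14 genes of a list that regulate the Il6 promoter or its messenger RNA, or that code for receptors and enzymes upstream of it, were called higher with WT ILC2s, and 9 were called higher with IL13KO ILC2s, beside 32.8% and 30.1% of all genes; with the GC and length trend removed the counts were 10 and 8, with 1 called lower with IL13KO ILC2s. Jun and Fosl1, which encode AP-1 subunits, rose by 3.66 ± 0.20 (adjusted p = 2.08e-08) and 3.16 ± 0.19 (adjusted p = 3.89e-08) with WT and by 2.31 ± 0.19 and 2.01 ± 0.19 with IL13KO ILC2s. Fosl1 shares 57.2% of its exon bases with an antisense gene, so its counts are uncertain. The list holds genes of opposite action. Zc3h12a, which encodes a nuclease that degrades Il6 messenger RNA, rose by 4.29 ± 0.27 (adjusted p = 7.08e-08) with WT ILC2s, and Arid5a, whose product stabilises that RNA, rose by 2.04 ± 0.16 (adjusted p = 3.87e-07). Arid5a also rose with IL13KO ILC2s, by 2.35 ± 0.16 (adjusted p = 4.77e-07). With the trend removed the values of Arid5a were 0.86 with WT and 0.91 with IL13KO ILC2s. Between the cocultures 6 of the 14 were higher and 2 lower with WT ILC2s (11.6% and 11.7% of all genes). Nfkb1 (1.42 ± 0.16), Nfkbia (0.87 ± 0.10), Zc3h12a (1.94 ± 0.25) and Jun (1.35 ± 0.20) were higher, and Cebpb, named for this comparison after its value was seen, was lower (-1.35 ± 0.27). Against monoculture Cebpb rose in both cocultures, by 1.44 ± 0.27 with WT ILC2s (adjusted p = 0.000425). With IL13KO ILC2s it rose by 2.79 ± 0.27 (adjusted p = 4.13e-06), or by 1.77 with the GC and length trend removed.

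Soluble IL-6 receptor is released by proteases of the ADAM family, and the transport of 1 of these, ADAM17, depends on inactive rhomboid proteins. Of 4 such genes 3 were called higher and 0 lower in each coculture (all genes: 32.8% and 29.7% with WT, 30.1% and 27.3% with IL13KO ILC2s), and after removal of the GC and length trend 3 were higher and 1 lower with WT and 2 higher and 1 lower with IL13KO ILC2s. Rhbdf1 rose by 2.89 ± 0.19 (adjusted p = 7.77e-08) and 3.08 ± 0.19 (adjusted p = 2.23e-07), or by 1.55 and 1.49 after removal of the GC and length trend. Rhbdf2 rose by 3.94 ± 0.43 (adjusted p = 5.94e-06) and 2.52 ± 0.46 (adjusted p = 0.000461), the latter not being called with the trend removed (1.06, adjusted p = 0.0736). Under that setting the former was 2.68. Adam10 rose by 0.86 ± 0.12 and 0.62 ± 0.12. Adam17, the main sheddase of this receptor, differed by -0.17 ± 0.13 (adjusted p = 0.291) and -0.04 ± 0.13 (adjusted p = 0.796), and was called lower in both with that trend removed (-0.37, adjusted p = 0.0166, and -0.30, adjusted p = 0.0467). Between the cocultures 1 of the 4 was called higher and 0 lower with WT ILC2s (all genes: 11.6% and 11.7%). This was Rhbdf2, at 1.42 ± 0.37 (adjusted p = 0.0154). Its call was lost without WT coculture 1 (adjusted p = 0.0868) or IL13KO coculture 2 (0.0613) or 3 (0.0714).

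**Figure D4:**
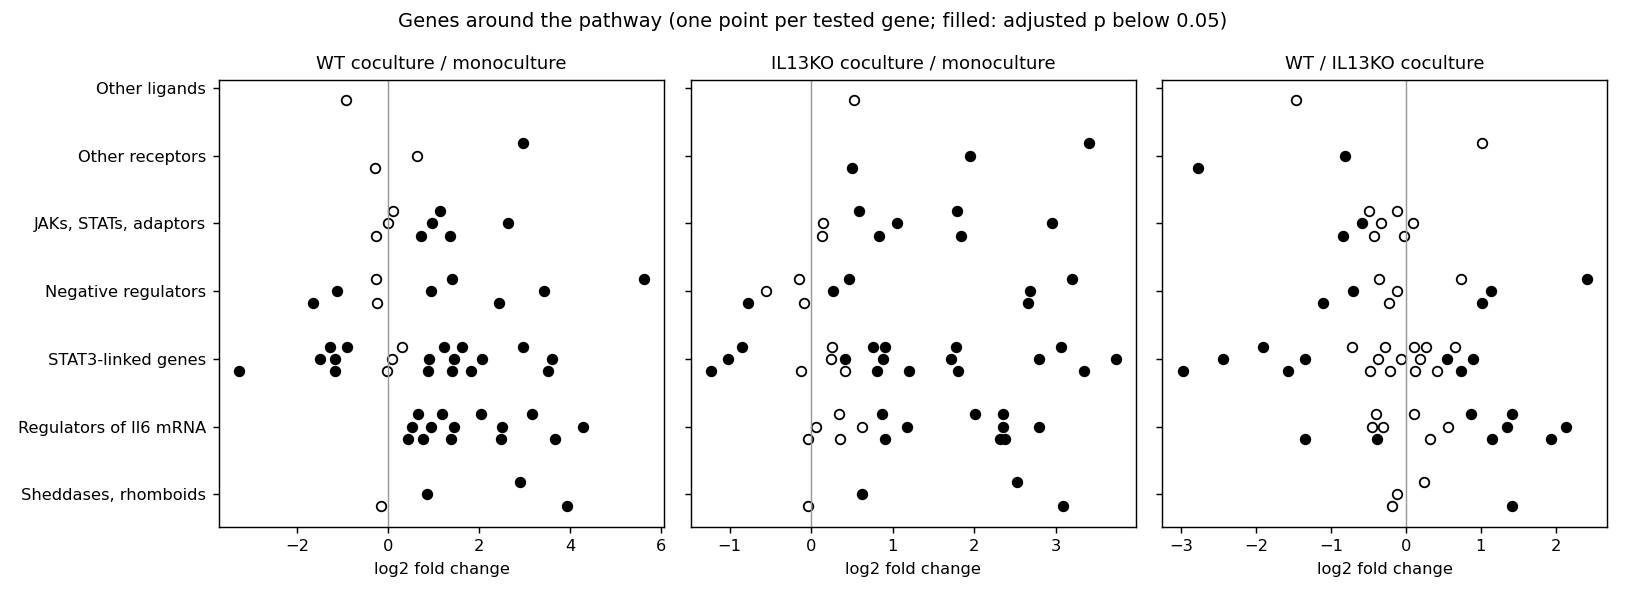
Log2 fold change of every tested gene of the 7 lists around the family, 1 point per gene, in the 3 comparisons; filled points have an adjusted p below 0.05. All 14 regulators of Il6 lie to the right of 0 in the first panel, while the 20 STAT3-linked genes spread from -3.28 to 3.61.

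The genes most like 3 of the members over the 10 libraries were found by Pearson's r of log2 CPM among genes with a mean of at least 10 CPM; 8332 genes were compared and the values are descriptions. For Il6 they were Pum3 (r = 0.976), Ltv1 (0.975) and Noc4l (0.961), and Pum3 stood at 73.4 ± 5.22, 101 ± 8.72 and 80.9 ± 5.45 CPM (SD) in monoculture, WT and IL13KO coculture. For Il6st they were Adamts1 (0.997), Il17ra (0.996) and Ror1 (0.996), and Adamts1 stood at 27.0 ± 6.51, 112 ± 19.5 and 153 ± 5.13 CPM. For Socs3 they were Loxl1 (0.998), Zfp574 (0.996) and Rnd2 (0.996), and Loxl1 stood at 110 ± 44.8, 1605 ± 343 and 1983 ± 89.9 CPM. The points of each r share libraries and fall into 3 groups.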

How the data were processed

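Bulk RNA was sequenced in 10 libraries of fibroblasts with a low-input kit, as paired reads, per the labels' protocols. The authors deposited raw counts, as whole numbers, for 22731 genes, and a normalised table that was not used. Per the submitters' processing notes, STAR 2.7.7a and Salmon 1.6.0 were used on GRCm38.p6, beside Trimmomatic 0.39, FastQC 0.11.9, DESeq2 and Picard; the counting tool and its strand setting are not given in the sources used here. Count columns of the WT cocultures are numbered 1, 3 and 4, and were assigned to their group only. Libraries of a group differed by more than sampling noise (chi-square per degree of freedom 7.16 to 32.1).

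Symbols, positions and exon lengths came from GENCODE M21, which matched 22647 identifiers, and promoters from RefSeq. Genes passed edgeR's filterByExpr (minimum count 10; 16344 kept). After TMM scaling, edgeR 4.0.16 (R 4.3.3) fitted all 10 libraries with a quasi-likelihood model holding 1 term per group, with Benjamini-Hochberg adjustment per comparison and a threshold of 0.05. The model was first run on simulated data with far fewer changed genes than were called here. That run cannot test the scaling where so many genes differ. Intervals are at 95% and cover counting error only where they are counting intervals. The alternatives changed the size factors, the test (DESeq2 1.42.0, limma-voom from limma 3.58.1) or the filter, or used fits of 2 groups, a replicate block, removal of GC and length trends (loess, span 0.4), equal depth and leaving out each library.

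The members and gene lists were chosen with earlier results of these data known. Beside the members, the rule named all other ligands, receptors, kinases, STATs and adaptors, from each other list and comparison the 4 genes of lowest adjusted p, and 3 genes of like pattern for Il6, Il6st and Socs3. Fold changes given for a listed gene in a comparison where the rule does not name it were chosen after its values were seen. Of 148 listed symbols 133 were found, and the others were not analysed here. A further 2 genes that the rule names are not reported here and are in no list count or figure.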

Additional observations from a re-analysis of the deposited data

How the results depend on the processing

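Against monoculture, leaving out any 1 library left 8 members called higher and 0 lower in both comparisons (8 to 8), and all genes called ranged from 4907 to 5515 higher and 4163 to 4944 lower with WT, and 4375 to 5099 and 3516 to 4628 with IL13KO ILC2s. Removing the GC and length trend called 1 member lower with WT ILC2s and turned the direction of Lifr (-0.36), Cntfr (-0.20) and Stat5a (-0.08) there, of Il11 (-0.11), Il11ra1 (-0.58) and Jak1 (-0.17) with IL13KO ILC2s, and of Socs3 (0.05), Jak2 (0.01) and Rhbdf1 (0.07) between the cocultures. Upper-quartile size factors moved the median of all genes by -0.12 and -0.10 and turned Jak2 with WT (-0.02) and Il11 with IL13KO ILC2s (-0.03), no filter turned Jak1 with WT ILC2s (0.03), and equal depth turned Gab1 between the cocultures (-0.05). Leaving out 1 library, Jak1 ranged from -0.03 to 0.03 and Lifr from -0.01 to 0.29 with WT ILC2s, Il11 from -0.16 to 0.46 and Adam17 from -0.14 to 0.03 with IL13KO ILC2s, and Jak2 from -0.11 to 0.09 and Adam17 from -0.18 to 0 between the cocultures. Of the values that turned, Stat5a, Il11ra1 and Jak1 under removal of the trend had been called and the others had not; the cause was not tested.

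Between the cocultures, the count of members rested on single libraries: without 1 library, 1 to 4 were higher and 1 to 3 lower, and all genes ranged from 1098 to 2388 higher and 1238 to 2426 lower. Fitting only the 2 groups called 4 members lower and 2873 genes higher and 2933 lower. With the replicate number as a block, 1 member was called higher, with 986 genes higher and 1138 lower, and Adam17 turned to 0.03 with IL13KO ILC2s. Samples of the same number did not deviate together (r = -0.126 to 0.028 over 8 pairs), and 1 of 16 checks found a library closest to its own number. These checks reuse the 10 libraries, and the numbers of the WT columns differ from those of the sample titles. They cannot tell whether libraries of different groups shared an animal or a batch, and the main fit used no pairing. Il11 and Osmr were called in all 20 alternatives, Il6 in 14 and Lif, Il6ra and Lifr in 16 each. Lif could not be tested against monoculture in a fit of the IL13KO and monoculture libraries alone. Depth limits Lif, Il11 and Il6ra most, with 4, 67 and 101 reads over the 4 monocultures.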
